A study of Mus musculus with 9 samples.

Results

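The cytosolic ribosomal protein genes were described here, chosen as the rows of the expression table whose symbol is Rpl or Rps followed by the protein's number, or Rplp0 to Rplp2 or Rpsa, without kinases and pseudogene symbols. The rule found 84 of 22322 genes, 52 of the large and 32 of the small ribosomal subunit, of which 77 are the standard set and 7 are paralogs with a closely related partner gene. RNA was sequenced from cultures labelled as mouse retinal ganglion cells (RGCs) of wild-type genotype, in 3 groups of 3 libraries each, 9 in all. Normal RGCs were kept in complete high-glucose medium and aging RGCs received D-galactose. Aging RGCs + USCs medium had D-galactose followed by the culture medium of human urine-derived stem cells (USCs), freed of the stem cells. The RGCs were bought and passaged, D-galactose stands in for age, and each group came from replicated wells, so p-values measure the spread between wells. No group is labelled as given unconditioned stem cell medium, so the base medium and what USCs released into it cannot be told apart.

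A ribosome joins a large and a small subunit, and each subunit is a ribosomal RNA core carrying ribosomal proteins, most of them in single copy. The mRNAs of these proteins are abundant in dividing and protein-producing cells, and most begin with a run of pyrimidines (the TOP motif) through which the mTORC1 kinase and LARP1 govern their translation. Assembly takes place largely in the nucleolus, and unassembled Rpl5 and Rpl11 with 5S RNA can bind Mdm2, the regulator of p53.

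Normal libraries held 19814241 to 22342288 expected counts. Aging libraries held 18189616 to 19556335, and those of aging RGCs + USCs medium, called medium-treated below, 20238824 to 21054326. Of the 84 members, 81 passed the filter on low counts, each with over 10 CPM (counts scaled to a fixed library size) in every library. CPM here are scaled by TMM factors, which correct a library total for its composition. The other members, Rpl3l, Rpl10l and Rpl39l, had 0 counts in all 9 libraries, and paralogs of this kind are known from muscle or testis.

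The cell type label was checked against 13 retinal ganglion cell markers. The transcription factors Pou4f2 and Pou4f3, both on that list of markers, were at 0 in all 9 libraries. Pou4f1, of the same family, had 2 to 27 counts a library, at 0.456, 0.876 and 0.423 CPM on average in normal, aging and medium-treated RGCs, and did not pass the test in any comparison. In all, 7 of the 13 markers stayed under 1 CPM in every library. Summed marker CPM, led by Rbpms and, in normal RGCs, also by Nefl, was 143, 151 and 155 in normal RGCs, 102, 105 and 105 in aging RGCs and 96.5, 101 and 104 in aging RGCs + USCs medium. The 6 epithelial markers, led by Krt8, summed to 1047, 1141 and 1104 CPM in normal RGCs, 1085, 1103 and 1077 in aging RGCs and 1236, 1285 and 1245 in aging RGCs + USCs medium. These 6 did not move together. Krt8 was 36.6% higher in aging and 74.2% higher with the medium than in normal RGCs, Krt18 fell by 21.3% and 12.2% against normal and Krt19 fell by 24.7% and 29.2% (all called in edgeR), Epcam had no call, and Cdh1 and Cldn4 stayed under 1 CPM. Rbpms, Nefl, Isl1 and Tubb3 were above 1 CPM in every library. Nefl, neurofilament light chain, was at 57.5, 67.5 and 65.9 CPM in normal, 36.6, 41.5 and 37.2 in aging and 16.1, 18.2 and 17.5 in medium-treated RGCs, lower from group to group. Tubb3, a neuronal tubulin, was at 4.42, 4.51 and 4.44 CPM in normal, 3.14, 2.37 and 2.28 in aging and 21.2, 22.2 and 20.1 in medium-treated RGCs, 8.16-fold higher with the medium than in aging (edgeR, adjusted p = 3.07e-17). Isl1 ran from 11.1 to 21.6 CPM over the 9 libraries. It was 36.6% lower in aging and 30.7% lower with the medium than in normal RGCs, and Rbpms was 18.9% and 21.6% lower (all called in edgeR). Since Pou4f2 and Pou4f3 were at 0 and Pou4f1 was low, the cultures are called RGCs below only as the labels do.

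The 6 fibroblast markers, led by Col3a1, summed to 509, 429 and 469.7 CPM in normal RGCs, 400.0, 398 and 409 in aging RGCs and 246, 246 and 250.3 in aging RGCs + USCs medium, lower in every medium-treated library than in the other groups, and Dcn, Lum and Col1a2 stayed under 1 CPM. With the medium against aging Col3a1 fell by 39.7% (edgeR, adjusted p = 2.59e-14). Col1a1 and Pdgfra had no call there (edgeR, adjusted p = 0.284 and 0.219), and every medium-treated library was above every aging library for Pdgfra. The 9 macrophage and microglia markers, led by Cd68, summed to 66.7, 59.2 and 56.4 CPM in normal RGCs, 50.8, 46.2 and 44.6 in aging RGCs and 33.8, 30.7 and 52.1 in aging RGCs + USCs medium. The 7 photoreceptor markers summed to 0.149 to 1.13 CPM over the 9 libraries, with Rcvrn, Crx and Arr3 at 0 throughout. The 4 endothelial markers, led by Cdh5, summed to 11.8, 12.1 and 13.6 CPM in normal, 8.76, 8.03 and 7.85 in aging and 2.62, 1.89 and 2.10 in medium-treated RGCs, and Cdh5 fell by 80.1% with the medium against aging (edgeR, adjusted p = 1.95e-12). Of the 6 glial markers only Glul, which many cell types express, was above 1 CPM, at 94.3 to 105 CPM in normal and aging RGCs and 126, 128 and 129 in aging RGCs + USCs medium. Gfap, Aqp4, Rlbp1, S100b and Slc1a3 were at or near 0 in every library. The part of these shifts in the results below was not tested, and in bulk libraries fewer cells of a type and less RNA per cell cannot be told apart.

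Ribosomal protein genes took 4.13%, 4.08% and 4.06% of the expected counts in normal RGCs (4.09% ± 0.03, SD, n = 3). They took 4.05%, 3.82% and 3.95% in aging RGCs (3.94% ± 0.11, SD, n = 3) and 4.19%, 4.44% and 4.23% in aging RGCs + USCs medium (4.29% ± 0.14, SD, n = 3). Every medium-treated library was above every normal library, and every normal library was above every aging library. The groups also kept this order outside the mitochondrial genome, at 4.48%, 4.35% and 4.76% of the counts. Per length, as a share of summed FPKM (fragments scaled by transcript length and sequencing depth), the means were 10.3%, 9.72% and 10.2%, so the medium group was not above the normal group on that scale. On summed TMM-scaled CPM normal and aging overlapped, with aging replicate 1 at 39792 above normal replicates 2 and 3 at 39715 and 39704. The large subunit gave 60.5% to 61.2% of the members' summed CPM in each of the 9 libraries.

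**Figure D1:**
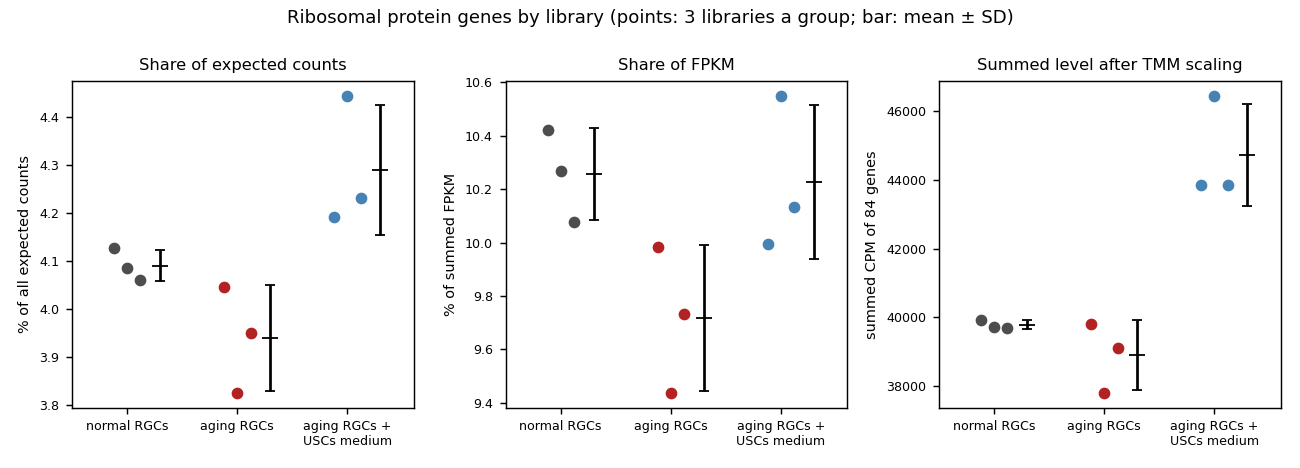
Share of expected counts (left, %), share of summed FPKM (middle, %) and summed TMM-scaled CPM (right) of the 84 ribosomal protein genes, with 1 point per library and the mean ± SD of the 3 libraries a group; the axes do not start at 0. Aging replicate 2 is the lowest library and medium-treated replicate 2 the highest in each panel, and the count share runs from 3.82% to 4.44%.

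A library from each treated group stood apart from the rest of its group. The median deviation of the members from their mean over the 9 libraries, on the log2 scale, was -0.14 in aging replicate 2 against -0.04 and -0.07 in the other aging libraries. It was 0.18 in medium-treated replicate 2 against 0.08 in each of the other medium-treated libraries, and 0.00, -0.02 and -0.05 in the normal libraries. The total counts of called members are therefore given below with and without these libraries.

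**Figure D2:**
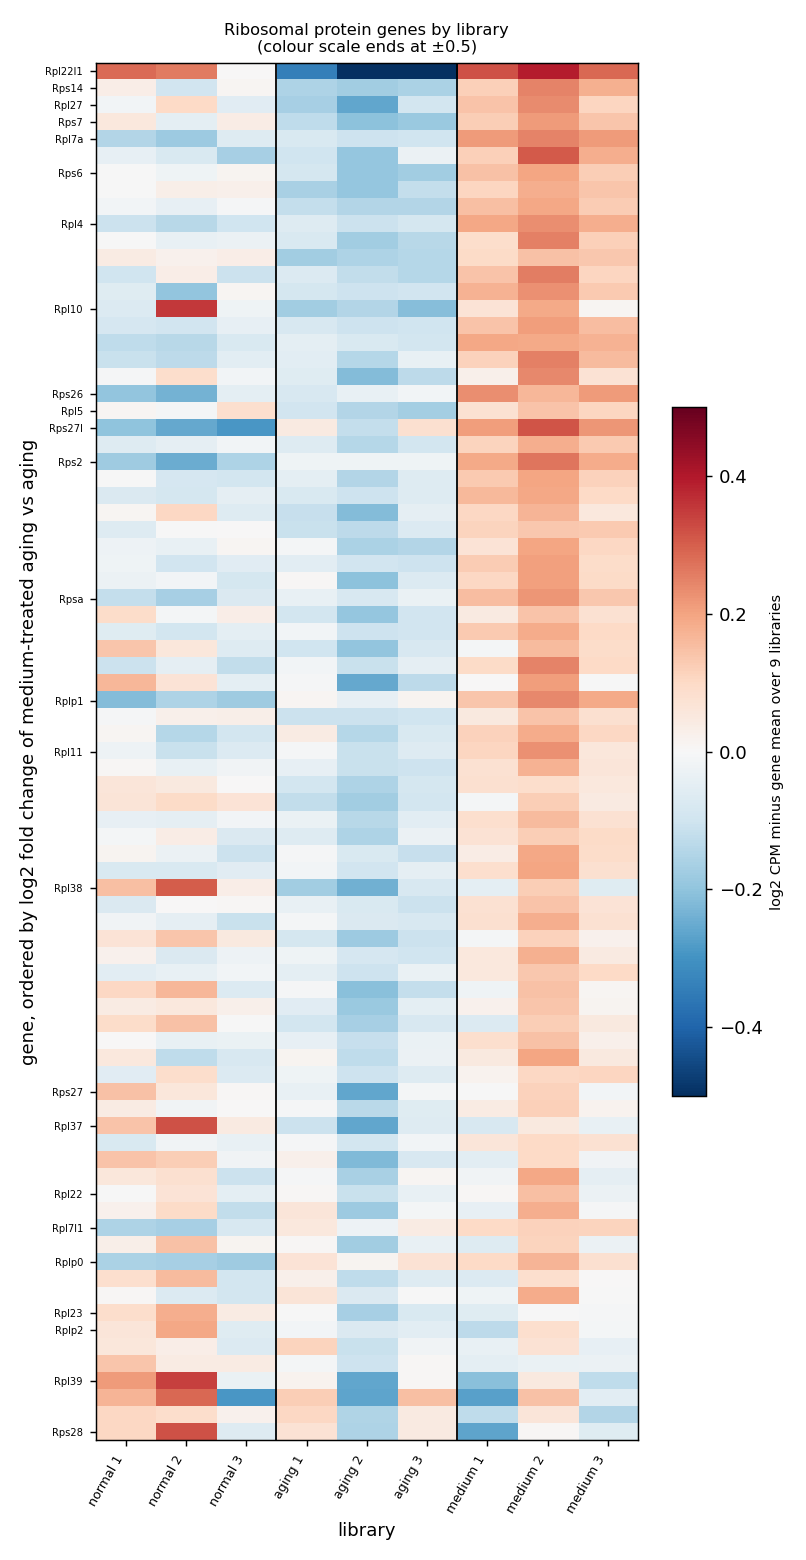
Deviation of each tested ribosomal protein gene (rows, ordered by fold change of medium-treated aging against aging) in each library (columns) from its mean over the 9 libraries, on the log2 CPM scale; colours end at ±0.5, and genes whose values are given in the text are labelled. Most rows are below their mean in aging replicate 2 and above it in medium-treated replicate 2, and Rpl22l1 at the top is far below its mean in all 3 aging libraries.

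The first comparison asked how D-galactose changed the ribosomal protein genes. In aging RGCs 32 of the 81 tested members were lower than in normal RGCs and 6 were higher (edgeR quasi-likelihood F test, adjusted p under 0.05 over 12145 genes, no fold threshold). Over all genes tested, 23.0% were lower and 23.6% higher. The median log2 fold change was -0.06 over the members and 0.00 over all genes. Declines ran from 5.43% to 38.5%. No called change reached 1 on the log2 scale in either direction, as 2.65% of all genes did. Both subunits took part, with 20 lower and 3 higher of 49 in the large subunit and 12 lower and 3 higher of 32 in the small subunit. Without aging replicate 2 the count of lower members was 20 in place of 32, all of them among those 32, with 13 of the large and 7 of the small subunit, 6 higher and a median of -0.04. Over all genes tested, 2517 were lower without that library, in place of 2788. The members' share of lower calls thus came closer to that of all genes.

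Rpl22l1, the paralog of the large subunit protein Rpl22, had the largest decline (ENSMUSG00000039221, chr3:28805436-28807424, plus strand, mm10, from the GENCODE M21 annotation). It was at 22.2, 21.9 and 18.3 CPM in normal, 14.4, 11.7 and 12.4 in aging and 22.8, 23.9 and 22.3 in medium-treated RGCs. All 3 aging libraries were below the lowest normal library, and the medium-treated libraries were just above the normal ones, where the log2 fold change of 0.14 did not pass the test (edgeR, adjusted p = 0.142). The log2 fold change of aging against normal was -0.70 ± 0.09 (SE), adjusted p = 3.62e-07 in edgeR, a decline of 38.5%. The next declines were in Rpl38, Rpl37, Rpl10 and Rpl39, all of the large subunit. Rpl38, known from mouse mutants for its part in translating Hox mRNAs, was at 176, 196 and 162 CPM in normal, 141, 134 and 150.1 in aging and 153, 173 and 152 in medium-treated RGCs. Its aging libraries were all below its normal libraries, with a log2 fold change of -0.33 ± 0.05 (SE), adjusted p = 1.14e-05 in edgeR. Rpl37, a zinc-binding protein, was at 259, 292 and 242 CPM in normal, 218, 196 and 225 in aging and 222, 242 and 229 in medium-treated RGCs. Normal and aging again did not overlap, and the log2 fold change was -0.31 ± 0.05 (SE), adjusted p = 1.19e-05 in edgeR. Rpl39, which lines the exit tunnel of the nascent chain, was at 98.6, 108 and 83.2 CPM in normal, 86.2, 71.0 and 85.4 in aging and 73.6, 87.9 and 78.0 in medium-treated RGCs. Its groups overlapped, its log2 fold change was -0.26 ± 0.07 (SE), adjusted p = 0.00477 in edgeR, and the call was lost without aging replicate 2, with DESeq2 and on the FPKM scale.

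Rpl10, which lies near the peptidyl transferase centre, was at 206, 277 and 213 CPM in normal, 192, 196 and 187 in aging and 227, 247 and 218 in medium-treated RGCs. Normal replicate 2 stood far above the other normal libraries, and the aging libraries lay below all normal libraries. The log2 fold change of aging against normal was -0.28 ± 0.07 (SE), adjusted p = 0.000985 in edgeR. It was -0.13 without normal replicate 2, and the call was lost with DESeq2. Rpl10 had counts with decimals in all 9 libraries, as estimated counts have where reads match several places, so its level is uncertain.

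Against the trend, 6 members rose in aging RGCs, which were Rps27l, Rplp0, Rplp1, Rps2, Rpl7l1 and Rps26. Rplp0, the scaffold of the P stalk that recruits elongation factors to the large subunit (ENSMUSG00000067274, chr5:115559467-115563727, plus strand), was at 1725, 1717 and 1702 CPM in normal, 2024, 1946 and 2026 in aging and 2065, 2168 and 2040.2 in medium-treated RGCs. Every aging library was above every normal library, and the medium-treated libraries were higher still. Its log2 fold change of aging against normal was 0.22 ± 0.03 (SE), adjusted p = 3.09e-07 in edgeR, with 0.07 ± 0.03 (SE), adjusted p = 0.0564, for the medium against aging. Rplp1, its partner in the stalk, was at 305, 319 and 313 CPM in normal, 357, 344 and 358 in aging and 390.4, 419 and 405 in medium-treated RGCs. No groups overlapped. It rose in aging by 0.18 ± 0.03 (SE), adjusted p = 7.50e-05, and with the medium by a further 0.20 ± 0.03 (SE), adjusted p = 1.42e-05, on the log2 scale in edgeR. Rplp2, the third stalk protein, was at 139, 153 and 128 CPM in normal, 132, 127 and 129 in aging and 122, 142 and 132 in medium-treated RGCs. Its groups overlapped, it had no call in any of the 3 comparisons, and its counts carried decimals in all 9 libraries.

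Rps2, which sits at the mRNA entry channel of the small subunit, had the highest level of all members per length, with an FPKM of 2543 ± 81.9 (SD, n = 3) in normal RGCs. It was at 2496, 2380.4 and 2539.7 CPM in normal, 2778, 2783 and 2780.2 in aging and 3219, 3402 and 3206 in medium-treated RGCs. The groups did not overlap, and Rps2 rose by 0.17 ± 0.03 (SE), adjusted p = 2.16e-05, in aging and by 0.24 ± 0.03 (SE), adjusted p = 8.55e-08, with the medium against aging (log2, edgeR). Rpl7l1, a paralog of Rpl7, was at 191, 190.2 and 202 CPM in normal, 221, 209 and 219 in aging and 229, 231 and 230.3 in medium-treated RGCs. Its rise in aging was 0.16 ± 0.04 (SE), adjusted p = 0.000573 on the log2 scale in edgeR, a call lost on the FPKM scale. Rps26, which lies at the mRNA exit channel, was at 779, 756 and 862 CPM in normal, 843, 869 and 883 in aging and 1048, 1001 and 1035 in medium-treated RGCs. Normal and aging overlapped. Its rise in aging, 0.11 ± 0.04 (SE), adjusted p = 0.0110 in edgeR on the log2 scale, was lost without normal replicate 1, without normal replicate 2, without aging replicate 3 and on the FPKM scale. The next levels per length in normal RGCs were Rpl23a at 1770.0 ± 22.5, Rps24 at 1346 ± 32.0, Rplp0 at 1305 ± 16.8 and Rpl19 at 1216 ± 4.01 FPKM (SD, n = 3). The libraries of the neighbours Rps24 and Rplp0 overlapped. The lowest detected members were Rps27l at 131, Rpl36al at 125, Rpl7l1 at 103, Rps20 at 64.6 and Rpl22l1 at 39.9 FPKM, so the 4 detected paralogs were among the 5 lowest, and the libraries of Rps27l and Rpl36al overlapped.

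The second comparison asked how the USCs medium changed the ribosomal protein genes of aging RGCs, and here most of the group moved one way. With the medium 64 of the 81 tested members rose, against 27.1% of all genes tested (edgeR, adjusted p under 0.05), and 39 of 49 were of the large and 25 of 32 of the small subunit. The count of lower members was 0 in edgeR, also at an unadjusted p under 0.05, and it was 0 in DESeq2 and in limma on FPKM too, against 26.0% of all genes lower in edgeR. With library totals in place of TMM factors it was 1. The median log2 fold change was 0.19 over the members and -0.01 over all genes, and 76 of the 81 values were positive. The rises ran from 6.19% to 79.6%, none reached 1 on the log2 scale, as 5.44% of all genes did in either direction, and apart from Rpl22l1 the largest was 26.8%. Without aging replicate 2 the counts were 59 higher and 1 lower, and without medium-treated replicate 2 they were 57 and 1, with medians of 0.17 and 0.16. On the FPKM scale limma called 38 higher, with a median of 0.11, when all genes had a median of -0.06 at a pseudocount of 1 and -0.08 at 0.1.

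**Figure D3:**
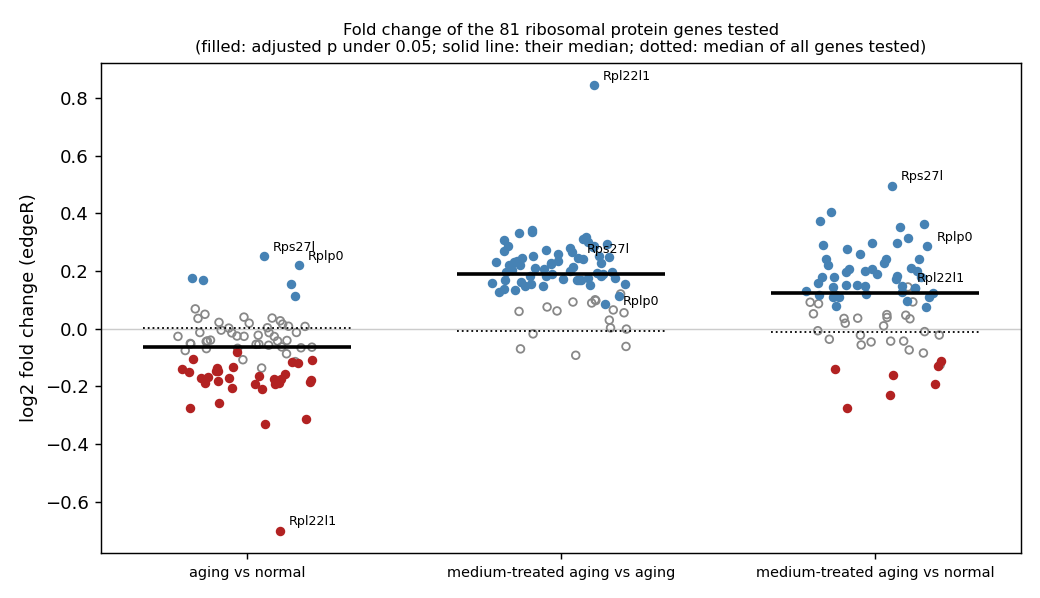
Log2 fold change (edgeR) of the 81 tested ribosomal protein genes in the 3 comparisons; filled points passed an adjusted p of 0.05 (blue higher, red lower), the solid line is the median of the 81 and the dotted line the median of all 12145 genes tested. The cloud of points lies slightly below 0 for aging against normal (median -0.06) and above 0 for the medium (medians 0.19 and 0.12), and Rpl22l1 stands far from the others at -0.70 and 0.85.

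Rpl22l1 again changed most, with a log2 fold change of 0.85 ± 0.09 (SE), adjusted p = 8.67e-09 in edgeR for the medium against aging, a level 1.80 times that of aging RGCs. Rps14, of the small subunit's platform, was at 388, 356 and 382 CPM in normal, 341, 337 and 341 in aging and 412, 450.4 and 429 in medium-treated RGCs. All medium-treated libraries were above all others, the aging libraries were the lowest, and the log2 fold change against aging was 0.34 ± 0.04 (SE), adjusted p = 5.43e-09 in edgeR. Rpl27, of the large subunit, was at 410.0, 444 and 397 CPM in normal, 369, 346 and 388 in aging and 457, 487 and 446 in medium-treated RGCs. Rps7, of the small subunit, was at 545, 508 and 539.7 CPM in normal, 481, 456 and 462 in aging and 572, 609 and 579 in medium-treated RGCs. Both had the same order of groups with no overlap, and the log2 fold changes of the medium against aging in edgeR were 0.33 ± 0.04 (SE), adjusted p = 1.14e-07, for Rpl27 and 0.33 ± 0.03 (SE), adjusted p = 3.49e-09, for Rps7. Rpl7a, a large subunit protein near the exit tunnel (ENSMUSG00000062647, chr2:26910764-26913318, plus strand), was at 711, 694 and 751 CPM in normal, 746, 732 and 735 in aging and 912, 933 and 911 in medium-treated RGCs. Here normal and aging libraries overlapped and the medium-treated libraries stood above both, against aging by 0.32 ± 0.03 (SE), adjusted p = 1.21e-09, on the log2 scale in edgeR.

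Rps6, the small subunit protein that S6 kinases phosphorylate downstream of mTORC1, was at 827, 816 and 834 CPM in normal, 778, 723 and 733 in aging and 916, 948 and 901 in medium-treated RGCs. The 3 groups were separate, with aging lowest and medium highest, and the log2 fold changes in edgeR were -0.15 ± 0.03 (SE), adjusted p = 0.000273, in aging and 0.31 ± 0.03 (SE), adjusted p = 3.03e-09, with the medium against aging. Rpl5 and Rpl11, the proteins that carry 5S RNA and can bind Mdm2, had different calls in aging. Rpl5 was at 789, 778 and 829 CPM in normal, 732, 706 and 696 in aging and 824, 863 and 843 in medium-treated RGCs. It fell in aging by 0.17 ± 0.03 (SE), adjusted p = 7.84e-05, on the log2 scale in edgeR, with no overlap. Rpl11 was at 389.9, 367 and 378 CPM in normal, 395, 367 and 379.8 in aging and 427, 464 and 412 in medium-treated RGCs. Normal and aging overlapped, with a log2 fold change of 0.01 ± 0.04 (SE), adjusted p = 0.872 in edgeR. Both rose with the medium against aging, by 0.25 ± 0.03 (SE), adjusted p = 1.87e-07, for Rpl5 and 0.19 ± 0.04 (SE), adjusted p = 0.000130, for Rpl11 (log2, edgeR), and the Rpl11 call was lost on the FPKM scale. The counts of Rpl5 carried decimals in all 9 libraries, and the difference between the changes of these genes was not tested. Rpsa, also known as the laminin receptor precursor, was at 1221, 1182 and 1263 CPM in normal, 1292, 1255 and 1298 in aging and 1479, 1547 and 1456 in medium-treated RGCs. Normal and aging overlapped, and Rpsa rose by 0.22 ± 0.03 (SE), adjusted p = 6.43e-07, with the medium against aging (log2, edgeR).

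The third comparison set the medium-treated cells against normal RGCs and so shares libraries with both others, and 49 of 81 members were higher with the medium and 7 lower in edgeR. Over all genes tested, 30.6% were higher and 29.9% lower. A change of 1 or more on the log2 scale in either direction was called for 6.72% of all genes and for no member. The median log2 fold change was 0.12 over the members and -0.01 over all genes. Without medium-treated replicate 2 the counts were 42 higher and 9 lower. This comparison depended on the scaling: with library totals in place of TMM factors 26 were higher and 18 lower, and on the FPKM scale 20 were higher and 12 lower. The counts over all genes moved too, from 2367 to 3762 higher and from 3161 to 4889 lower over the 20 alternatives. TMM factors averaged 1.03 in normal, 1.01 in aging and 0.96 in medium-treated libraries, where mt-Co1, the most abundant gene, took 2.12%, 2.38% and 3.07% of the counts, and their part in the difference was not tested. Library totals moved the median of all genes to -0.11, and the members' median lay 0.14 above that of all genes under both scalings. On the FPKM scale it lay 0.11 above at a pseudocount of 1 and 0.13 above at 0.1. The largest rises in edgeR were Rps27l at 0.50, Rps2 at 0.41, Rplp1 at 0.37, Rps26 at 0.36 and Rpl7a at 0.35 on the log2 scale, each with no overlap between the groups.

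The 7 lower members were Rpl39, Rps28, Rpl37, Rpl38, Rpl37a, Rpl23 and Rpl28. Rps28, a small protein at the mRNA exit of the small subunit, was at 107, 125 and 95.4 CPM in normal, 105, 89.8 and 103 in aging and 83.3, 100.3 and 95.7 in medium-treated RGCs. Every pair of groups overlapped. Its log2 fold change of the medium against normal was -0.23 ± 0.07 (SE), adjusted p = 0.00619 in edgeR, and the call was lost without normal replicate 2 and without medium-treated replicate 1. Against normal, the level of Rpl39 fell by 17.3% and that of Rpl37 fell by 12.5% in edgeR. Rpl23, which also binds Mdm2, was at 728, 777 and 704 CPM in normal, 684, 610.5 and 649.8 in aging and 656, 684 and 681 in medium-treated RGCs. Every medium-treated and aging library was below every normal one, with a log2 fold change against normal of -0.13 ± 0.04 (SE), adjusted p = 0.00426 in edgeR. DESeq2 called 2 of the 7, Rpl23 and Rpl28, and so lost Rpl39, Rpl37, Rps28, Rpl38 and Rpl37a, and edgeR called 4 lower members without normal replicate 2, 4 without medium-treated replicate 1 and 11 without normal replicate 3.

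Put side by side over the 3 comparisons, the members fell into several patterns of calls. How often all genes show each pattern was not counted, so no pattern can be called more frequent among the members than elsewhere. The most frequent, with 31 members, was no call in aging and higher with the medium against both other groups, as for Rpl3, Rpl4, Rpl7a, Rpl8 and Rps3a1. A further 14 were lower in aging, higher with the medium against aging and without a call against normal, among them Rpl22l1, Rps10, Rps16, Rps18 and Rpl34. Aging against normal and the medium against aging share the aging libraries, so a low aging level enters both calls. Without aging replicate 2, 6 of these 14 lost the call in aging, which were Rps27a, Rps16, Rpl36, Rpl34, Rpl35 and Rps27. Of these, Rps27 and Rps27a also lost the call with the medium against aging. On the FPKM scale 10 of the 14 lost the call with the medium against aging, Rps10, Rps16 and Rps18 among them, and Rpl22l1 and Rpl34 kept it. Another 11 were lower in aging and higher with the medium against both, among them Rps6, Rps7, Rps14, Rpl6, Rpl26 and Rpl27. These patterns depended on the scaling, given here for the calls against normal. Of these 11 members, 9 lost that call with library totals, leaving Rpl6 and Rps14, and 10 lost it on the FPKM scale, leaving Rpl6. Of the 31 members, 13 lost it with library totals and 17 on the FPKM scale, Rps3a1 among them in both. On the FPKM scale 12 of the 31 also lost the call against aging. The 5 members called higher in all 3 comparisons were Rpl7l1, Rplp1, Rps2, Rps26 and Rps27l. For Rpl7l1 the rise with the medium against aging ran from 0.01 to 0.10 on the log2 scale over the alternatives, and the call was lost with library totals, with upper-quartile factors, on the FPKM scale, without aging replicate 2 or 3 and without any 1 of the medium-treated libraries. Its call against normal was lost on the FPKM scale, as were the aging calls of Rpl7l1 and Rps26. The members without a call in any comparison were Rpl22, Rpl32, Rpl41, Rplp2, Rps21, Rps29 and Rps9, which are 7 of the 81.

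Rpl4, an early-assembling protein with a long loop reaching the exit tunnel, stands for the first pattern. It was at 1419, 1389.7 and 1428 CPM in normal, 1462, 1419.6 and 1437 in aging and 1746, 1795 and 1733 in medium-treated RGCs. Normal and aging libraries overlapped, all medium-treated libraries were above both, and the log2 fold changes in edgeR were 0.03 ± 0.03 (SE), adjusted p = 0.437, in aging and 0.29 ± 0.03 (SE), adjusted p = 7.95e-10, with the medium against aging.

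The detected paralogs were set beside their partners, of which Rpl22 is at chr4:152325742-152334071, plus strand, and Rps27 at chr3:90212522-90213651, minus strand (mm10). Rpl22l1 and Rpl22 lie on different chromosomes, 3 and 4, and their coding sequences (GENCODE M21, GRCm38) were identical at 259 of 369 aligned bases (70.2%). Rps27l and Rps27 lie on chromosomes 9 and 3 and were identical at 194 of 255 bases (76.1%). Reads can be assigned to a member of a pair by such differences. For each pair the 60-base stretch without gaps that differs most is shown, so it is not typical of the whole coding sequence. Differing bases are in capitals, 24 in the first pair and 19 in the second. Positions are counted from the first base of the start codon, 175 to 234 in Rpl22, 157 to 216 in Rpl22l1, and 4 to 63 in Rps27 and Rps27l.
Rpl22: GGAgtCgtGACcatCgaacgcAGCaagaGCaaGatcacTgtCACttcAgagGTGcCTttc
Rpl22l1: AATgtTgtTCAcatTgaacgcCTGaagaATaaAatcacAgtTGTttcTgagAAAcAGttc
Rps27: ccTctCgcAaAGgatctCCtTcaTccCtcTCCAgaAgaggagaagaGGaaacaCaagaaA
Rps27l: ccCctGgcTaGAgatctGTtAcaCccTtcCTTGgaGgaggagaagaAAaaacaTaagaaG

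Rpl22 was at 182, 191 and 176 CPM in normal, 183, 169 and 178 in aging and 183, 202 and 179 in medium-treated RGCs. Its groups overlapped and it had no call in any comparison. Per length, Rpl22l1 was at 11.7%, 11.0% and 9.96% of the FPKM of Rpl22 in normal RGCs, 7.46%, 6.55% and 6.59% in aging RGCs and 11.5%, 10.9% and 11.6% in aging RGCs + USCs medium. Every aging library was below every other library. Rps27l, a known target of p53 (ENSMUSG00000036781, chr9:66946086-66949516, plus strand, mm10), was at 65.9, 63.3 and 61.8 CPM in normal, 78.1, 69.6 and 80.1 in aging and 87.4, 94.1 and 88.2 in medium-treated RGCs. No groups overlapped, and Rps27l rose by 0.25 ± 0.05 (SE), adjusted p = 0.000200, in aging and by 0.24 ± 0.05 (SE), adjusted p = 0.000178, with the medium against aging (log2, edgeR). Its partner Rps27 was at 168, 158 and 152 CPM in normal, 147, 127 and 150.2 in aging and 151, 164 and 150.2 in medium-treated RGCs. Aging was below normal, and its log2 fold change in aging was -0.17 ± 0.05 (SE), adjusted p = 0.00668 in edgeR, a call lost without aging replicate 2. Per length, Rps27l was at 27.1%, 27.7% and 28.0% of Rps27 in normal RGCs, 36.5%, 37.8% and 36.7% in aging RGCs and 39.8%, 39.4% and 40.4% in aging RGCs + USCs medium, with no overlap.

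Rpl36al was at 47.3% ± 3.08 of Rpl36a per length in normal, 48.4% ± 2.54 in aging and 54.6% ± 2.52 in medium-treated RGCs (SD, n = 3), and counts of Rpl36al carried decimals in all 9 libraries. Rpl7l1 was at 14.0% ± 0.64 of Rpl7 in normal, 15.1% ± 0.50 in aging and 13.9% ± 0.38 in medium-treated RGCs (SD, n = 3). For the 4 pairs, the log2 ratio was compared in 12 two-sided exact permutation tests, and 3 libraries against 3 cannot give a p below 0.1. That smallest exact p was reached by Rps27l to Rps27 in all 3 comparisons, by Rpl22l1 to Rpl22 except for the medium against normal, by Rpl36al to Rpl36a except for aging against normal, and by Rpl7l1 to Rpl7 for the medium against aging, each with an adjusted p of 0.15 over the 12 permutation tests. At 3 libraries against 3 this exact test could not pass the threshold for any ratio.

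**Figure D4:**
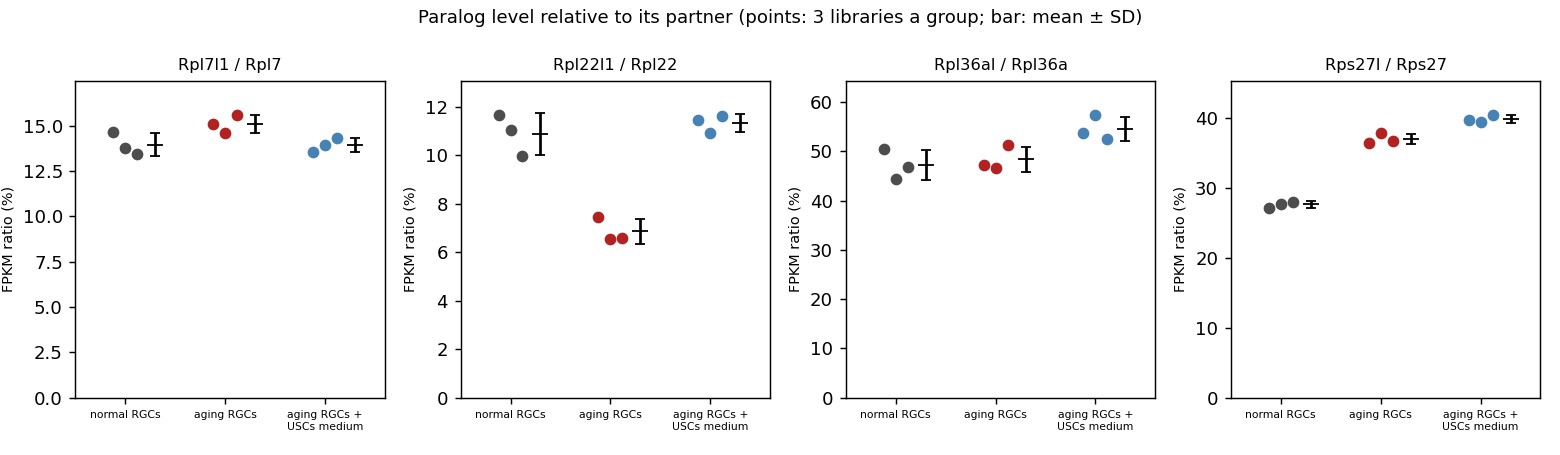
FPKM of each detected paralog as a percentage of that of its partner gene, with 1 point per library and the mean ± SD of the 3 libraries a group; axes start at 0. Rpl22l1 to Rpl22 is 10.9% in normal RGCs, 6.87% in aging RGCs and 11.3% with the medium, and Rps27l to Rps27 is 27.6%, 37.0% and 39.9%.

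Since the members are known for pyrimidine runs at the start of their mRNAs, the sequence around the start was read from RefSeq promoters (GRCm38.p6, 250 bases before to 50 after the start), which matched 64 of the 84 members with 76 promoters. A run of at least 8 pyrimidines (C or T) on the gene's strand reached within 20 bases of the start in 31 of the 76 (40.8%) and in 5272 of all 32851 promoters (16.0%). A C at the start itself followed by 4 pyrimidines was in 17.1% of the members' promoters and 2.51% of all. Of motifs searched on both strands, CCGGAAG (ETS factors) was in 35.5% of the members' promoters against 8.86% of all, GGGCGG (SP1) in 60.5% against 35.7%, and AAGATGGCG (YY1) in 7.89% against 1.40%. CACGTG (the E-box that MYC binds) was in 10.5% against 7.15%, and TATAAA in 9.21% against 13.6%. A match here is a description of letters, and no binding was measured.

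The 80 bases from 60 before to 20 after the start are shown for the paralogs that moved most and for 4 other members, with pyrimidine runs of at least 8 bases in capitals. They are chr3:28805448-28805527, plus strand for Rpl22l1, chr9:66946026-66946105, plus strand for Rps27l and chr2:26910747-26910826, plus strand for Rpl7a. The others are chr4:86857348-86857427, minus strand for Rps6, chr9:64173327-64173406, plus strand for Rpl4 and chr11:114668520-114668599, plus strand for Rpl38.
Rpl22l1: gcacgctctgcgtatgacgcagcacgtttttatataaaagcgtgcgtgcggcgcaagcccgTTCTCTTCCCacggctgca
Rps27l: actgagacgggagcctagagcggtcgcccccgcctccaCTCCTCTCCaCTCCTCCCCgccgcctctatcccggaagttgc
Rpl7a: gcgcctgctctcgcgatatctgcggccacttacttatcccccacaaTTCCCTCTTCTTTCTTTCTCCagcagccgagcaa
Rps6: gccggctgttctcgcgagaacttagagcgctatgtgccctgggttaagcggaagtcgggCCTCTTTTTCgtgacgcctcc
Rpl4: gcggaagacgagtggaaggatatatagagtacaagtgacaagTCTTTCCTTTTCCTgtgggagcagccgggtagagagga
Rpl38: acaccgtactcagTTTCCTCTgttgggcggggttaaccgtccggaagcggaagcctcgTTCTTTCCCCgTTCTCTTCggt

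The sequence of Rpl7a, which passed the test with the medium and not in aging, has a run of 21 pyrimidines over its start, and that of Rpl38, lower in aging, has runs before, over and after its start. Among tested members with a promoter, the 30 with a run near the start had a median log2 fold change of -0.11 in aging and 0.20 with the medium against aging, and the 31 without had -0.05 and 0.18. The medians against normal were 0.12 and 0.14.

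The transcripts of the members were short, with a median of 737 nt against 2550 nt for other genes. The length of a gene was the lower median over its annotated transcripts, coding ones where present. This gave 5130 nt for Rps15a and 3706 nt for Rps20, so a member's length class depends on which isoforms are annotated. The 26 tested members of up to 600 nt had median log2 fold changes of -0.07, 0.16 and 0.04 (aging against normal, medium against aging, medium against normal), and the 309 other genes of that length had 0.05, 0.03 and 0.09. The 44 members of 601 to 1200 nt had medians of -0.06, 0.23 and 0.14, and the 11 longer members -0.02, 0.21 and 0.21. The 1546 other genes of 601 to 1200 nt had 0.03, 0.07 and 0.09, and the 10192 longer ones -0.002, -0.02 and -0.03. Across the 81 members, Spearman's rho between length and log2 fold change was 0.19, 0.23 and 0.31 in these comparisons, and across 12047 other genes -0.03, -0.18 and -0.16. These values are across genes of the same libraries, and the part of transcript length in the results was not tested.

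The other genes of ribosome production were then set beside the ribosomal proteins, and in aging more of the assembly genes rose than fell. Over all genes tested, 23.6% rose and 23.0% fell in aging, 27.1% and 26.0% with the medium against aging, and 30.6% and 29.9% with the medium against normal (edgeR). Of 44 factors that assemble the large subunit, 28 (63.6%) rose and 3 (6.82%) fell in aging RGCs in edgeR, with a median log2 fold change of 0.18. Of 47 for the small subunit, 25 (53.2%) rose and 3 (6.38%) fell, with a median of 0.14. Of 12 snoRNP and nucleolar proteins, 9 (75.0%) rose and 3 did not pass the test. Ncl, nucleolin, which binds nascent ribosomal RNA, was at 1198, 1276 and 1287 CPM in normal, 1604, 1694 and 1580.4 in aging and 2144, 2036 and 2107 in medium-treated RGCs. Its groups were separate in rising order, at 0.38 ± 0.03 (SE), adjusted p = 1.49e-10, in aging and 0.37 ± 0.03 (SE), adjusted p = 1.55e-10, with the medium against aging (log2, edgeR). Dkc1, the enzyme that makes pseudouridine in ribosomal RNA, changed by 0.46 (adjusted p = 1.19e-09) in aging, and Nhp2 of the same particle by 0.46 (adjusted p = 3.64e-09) (log2, edgeR). Utp20, a component of the small subunit processome, changed by 0.49 (adjusted p = 1.16e-10), and Nop2, a methyltransferase of 28S ribosomal RNA, by 0.38 (adjusted p = 8.45e-09) in edgeR. Against this direction, Sbds, the protein of Shwachman-Diamond syndrome that acts at the last step of large subunit maturation, changed by -0.29 (adjusted p = 4.42e-05) and Esf1 by -0.36 (adjusted p = 3.90e-07) in edgeR.

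With the medium against aging, most assembly factors rose, as most ribosomal proteins did, with 33 of 44 large-subunit (75.0%) and 38 of 47 small-subunit factors (80.9%) higher and 1 lower in each list in edgeR, against 27.1% of all genes higher and 26.0% lower. The medians were 0.25 and 0.26. On the FPKM scale 24 and 25 were higher, with medians of 0.15 and 0.14 at a pseudocount of 1, and with library totals 26 and 31, with medians of 0.17 and 0.19. Against normal 39 (88.6%) and 46 (97.9%) of them were higher, as were 30.6% of all genes, with medians of 0.42 and 0.39. Npm1, nucleophosmin, a nucleolar chaperone, was at 2034, 2128 and 2145 CPM in normal, 2364, 2359 and 2391 in aging and 3338, 3273 and 3297 in medium-treated RGCs. Every medium-treated library was above every aging library and every aging library above every normal library. The log2 fold change of the medium against aging was 0.48 ± 0.03 (SE), adjusted p = 1.65e-14 in edgeR. Nop56, of the methylation snoRNP, changed by 0.38 (adjusted p = 3.08e-11), and Sbds and Esf1, which were low in aging, by 0.57 (adjusted p = 5.16e-10) and 0.56 (adjusted p = 6.72e-11) (log2, edgeR). Of 19 RNA polymerase I genes, which make ribosomal RNA, 9 rose (47.4%) and 2 fell in aging, 9 rose and 2 fell with the medium against aging, and 17 (89.5%) were higher with the medium against normal. Polr1a, its largest subunit, rose and then fell, at 0.35 (adjusted p = 9.81e-09) in aging and -0.17 (adjusted p = 0.000258) with the medium against aging in edgeR. Tcof1, treacle, fell and then rose, at -0.22 (adjusted p = 1.03e-05) and 0.56 (adjusted p = 2.79e-13) (log2, edgeR). With library totals and on the FPKM scale the count of polymerase I genes higher against normal was 9 of 19 in place of 17.

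**Figure D5:**
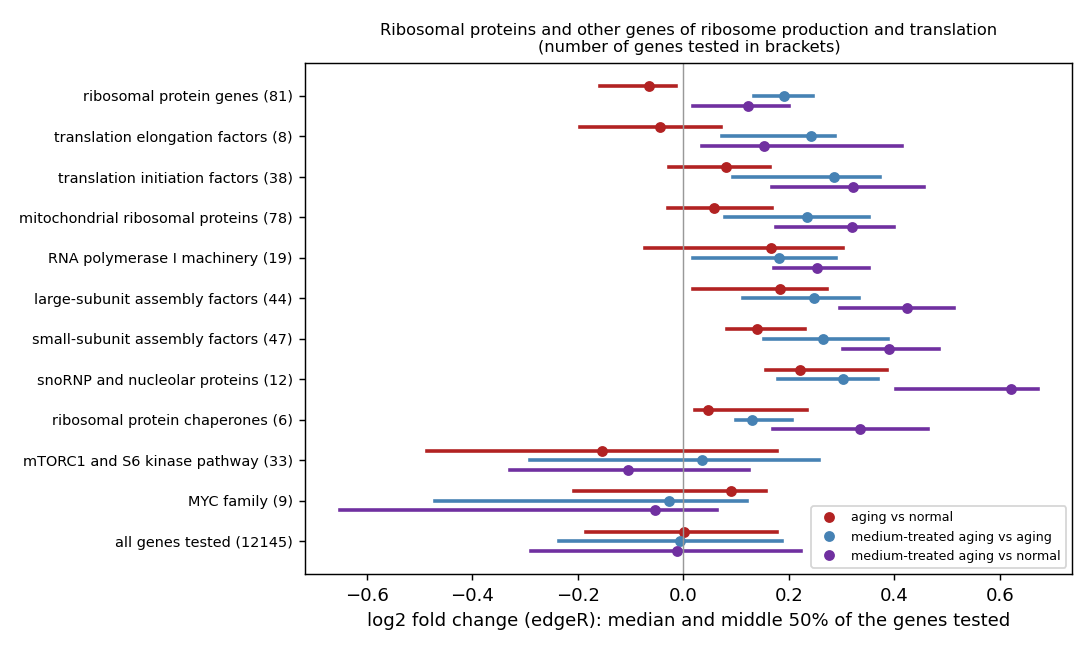
Median (point) and middle 50% (bar) of the log2 fold change (edgeR) in each gene list, with the number of genes tested in brackets, for aging against normal (red), medium-treated aging against aging (blue) and medium-treated aging against normal (purple). In aging the medians of the ribosomal protein genes and elongation factors are below 0 and those of the assembly factors above 0, and with the medium all of these medians are above 0.

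Among 38 translation initiation factors 17 (44.7%) rose and 6 (15.8%) fell in aging, against 23.6% and 23.0% of all genes tested, and 30 (78.9%) rose and 2 (5.26%) fell with the medium against aging, against 27.1% and 26.0% (edgeR). With library totals 26 rose and 5 fell with the medium against aging. Eif2s2, the beta subunit of the factor that brings the initiator tRNA, was at 615, 678 and 634 CPM in normal, 449.7, 447 and 439.6 in aging and 715, 729 and 718 in medium-treated RGCs. Its aging libraries were below all others, and the log2 fold change of the medium against normal, 0.17 ± 0.03 (SE), adjusted p = 7.31e-05 in edgeR, was 0.07 with library totals and on the FPKM scale, where the call was lost. It fell in aging and rose with the medium against aging, at -0.53 ± 0.03 (SE), adjusted p = 2.08e-13, and 0.69 ± 0.03 (SE), adjusted p = 3.89e-16 (log2, edgeR). Eif3c had log2 fold changes of -0.21 (adjusted p = 2.15e-06) and 0.58 (adjusted p = 4.34e-15), while those of Eif1 were -0.16 (adjusted p = 0.00149) and -0.16 (adjusted p = 0.00136) in edgeR. Of 8 elongation factors 2 rose in aging (25.0%, near the 23.6% of all genes) and 4 fell, where 23.0% of all genes did, and 6 (75.0%) rose with the medium against aging, against 27.1% of all genes, with 0 lower in edgeR and 2 lower with library totals. Eef1a1, which brings tRNAs to the ribosome, was at 8298, 8031 and 8421 CPM in normal, 7174, 6990.0 and 7119 in aging and 8883, 9143 and 8664 in medium-treated RGCs. Its aging libraries were the lowest. The log2 fold change of the medium against normal was 0.11 ± 0.03 (SE), adjusted p = 0.000731 in edgeR, but 0.01 with library totals and 0.00 on the FPKM scale, where the call was lost. Eef2, which moves the ribosome along the mRNA, was at 2950.3, 2747 and 2845 CPM in normal, 2383, 2383 and 2436 in aging and 2419, 2466 and 2354 in medium-treated RGCs. Aging and medium-treated libraries overlapped below all normal ones, with a log2 fold change of the medium against aging of 0.01 ± 0.03 (SE), adjusted p = 0.852 in edgeR, which turned to -0.07 with library totals. Eef1a1 and Eef2 are, like the ribosomal proteins, encoded by mRNAs with pyrimidine starts. Among ribosomal proteins with other symbols, Fau changed by -0.14 (adjusted p = 0.00863) in aging and 0.21 (adjusted p = 0.000103) with the medium in edgeR, where the aging call was lost without aging replicate 3, and Rack1 changed by -0.13 (adjusted p = 0.00173) and 0.25 (adjusted p = 1.57e-07) (log2, edgeR).

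Of 78 proteins of the mitochondrial ribosome, 21 (26.9%) rose in aging, near the 23.6% of all genes tested, and 6 (7.69%) fell, where 23.0% of all genes did (edgeR). DESeq2 called 13 higher in aging. With the medium against aging 50 (64.1%) rose and 2 (2.56%) fell, against 27.1% and 26.0% of all genes in edgeR. Mrps22, of its small subunit, was at 36.0, 39.7 and 34.8 CPM in normal, 28.9, 29.2 and 30.4 in aging and 46.7, 48.5 and 46.4 in medium-treated RGCs. Its groups were separate, with aging lowest. Mrps6 was at 38.5, 33.9 and 38.1 CPM in normal, 50.6, 43.5 and 50.6 in aging and 28.9, 31.7 and 29.2 in medium-treated RGCs. Here aging was highest, with a log2 fold change of -0.69 ± 0.07 (SE), adjusted p = 1.68e-09 with the medium in edgeR. Of 6 chaperones that hold free ribosomal proteins, 2 (33.3%) rose in aging, where Grwd1, which binds Rpl3, changed by 0.54 (adjusted p = 2.60e-08) (log2, edgeR), and 3 rose with the medium against aging. Of 12 snoRNA host genes listed, Snhg4 was the one analysed here, and it did not pass the test in any comparison.

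The genes that govern the pathway were mixed in direction. In the list of mTORC1 and S6 kinase genes, 8 of 33 rose (24.2%, against 23.6% of all genes tested) and 15 fell (45.5%, against 23.0%) in aging in edgeR, and 4 rose on the FPKM scale. The largest called rises in aging were in Mlst8 and Rragc, while none of the genes of this list given with values below rose in aging. With the medium against aging 12 rose and 11 fell (36.4% and 33.3%, against 27.1% and 26.0% of all genes). The list's median for the medium against aging was 0.04 and turned to -0.04 with library totals and on the FPKM scale. Ddit4, an inhibitor of mTORC1, was at 117, 129 and 124 CPM in normal, 59.3, 59.4 and 58.9 in aging and 86.6, 96.4 and 86.0 in medium-treated RGCs. The aging libraries were the lowest, and the log2 fold changes were -1.06 ± 0.05 (SE), adjusted p = 1.84e-16, in aging and 0.60 ± 0.05 (SE), adjusted p = 5.80e-11, with the medium against aging in edgeR. Sesn3, another inhibitor, was at 108, 91.9 and 96.5 CPM in normal, 69.7, 75.0 and 75.6 in aging and 34.9, 38.0 and 37.0 in medium-treated RGCs. It fell from group to group, with a log2 fold change of -1.43 ± 0.06 (SE), adjusted p = 5.39e-18 for the medium against normal in edgeR. Rragd, a GTPase that reports amino acids to mTORC1, was at 15.9, 19.1 and 16.7 CPM in normal, 16.5, 16.5 and 15.0 in aging and 6.78, 8.14 and 5.43 in medium-treated RGCs. The medium-treated libraries were below all others, at -1.24 ± 0.12 (SE), adjusted p = 8.36e-10 against aging (log2, edgeR). Larp1, which binds pyrimidine starts, was at 533, 503 and 504 CPM in normal, 454, 466 and 464 in aging and 569, 537 and 548 in medium-treated RGCs. Its groups were separate with aging lowest, at -0.15 ± 0.03 (SE), adjusted p = 0.000263, in aging and 0.26 ± 0.03 (SE), adjusted p = 1.25e-07, with the medium against aging (log2, edgeR). Eif4ebp1, the cap-binding inhibitor that mTORC1 switches off, was at 133, 133 and 130.3 CPM in normal, 91.0, 90.8 and 88.9 in aging and 132, 136 and 124 in medium-treated RGCs. Aging was again lowest, at -0.55 ± 0.04 (SE), adjusted p = 7.21e-12 (log2, edgeR).

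In the MYC family, 2 of 9 genes rose and 3 fell in aging (22.2% and 33.3%, against 23.6% and 23.0% of all genes tested), and 3 fell and 0 rose with the medium against aging in edgeR, where 26.0% of all genes fell and 27.1% rose. The count that rose in aging was 1 without aging replicate 2 and in DESeq2, and 0 with library totals and on the FPKM scale. Myc, a driver of ribosome production, was at 9.40, 11.1 and 11.0 CPM in normal, 6.16, 6.90 and 7.29 in aging and 7.91, 7.99 and 7.43 in medium-treated RGCs. Every normal library was above every other library, with a log2 fold change in aging of -0.63 ± 0.12 (SE), adjusted p = 8.84e-05 in edgeR. Its change with the medium did not pass the test, at 0.19 ± 0.12 (SE), adjusted p = 0.194 in edgeR. Mxd4, an antagonist of MYC, was at 34.0, 29.9 and 33.3 CPM in normal, 26.1, 27.6 and 27.4 in aging and 16.7, 15.7 and 15.7 in medium-treated RGCs. It fell in both steps, to a log2 fold change of -1.02 ± 0.07 (SE), adjusted p = 1.46e-12 for the medium against normal in edgeR. Levels of mRNA alone were measured, and neither the phosphorylation of Rps6 nor translation was.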

How the data were processed

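RNA-seq of 9 libraries, 3 wells in each of 3 groups, was analysed. The deposited table gave expected counts and FPKM per gene, which the authors made from the reads; the submitters' processing notes name the build mm10, while aligner and counter were not given in the sources used here. Expected counts were rounded and tested in edgeR 4.0.16 (R 4.3.3) with TMM factors, filterByExpr, all 9 libraries in 1 quasi-likelihood fit and 6 residual degrees of freedom. P-values were adjusted by Benjamini-Hochberg over 12145 genes and called under 0.05. CPM are TMM-scaled. Estimates carried decimals for 18 members in at least 1 library, which leaves reads shared with related sequences uncertain.

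The members and gene lists were chosen with earlier results of these data known. Genes named by rule were, per comparison, the 5 largest changes in each direction among called members whose log2 CPM averaged 1 or more, besides listed members of known role; list genes given as examples were chosen after their values were seen. The alternatives were DESeq2 1.42.0, edgeR's likelihood ratio test, other scalings and filters, limma 3.58.1 on log2(FPKM + 1) and log2(FPKM + 0.1), a replicate block, and each library left out. Scripts were tested on simulated data. Of 22322 genes, 22267 matched GENCODE M21 for positions and transcript lengths, and promoters came from RefSeq. Groups came from the labels. Totals of 18189616 to 22342288 counts and the spread between wells set the precision.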

Additional observations from a re-analysis of the deposited data

How the results depend on the processing

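For aging against normal the count of lower members ran from 20 to 35, that of higher members from 5 to 7, that of either direction from 26 to 42 and the median log2 fold change from -0.09 to -0.04 when each library was left out in turn, and the count of 20 came without aging replicate 2. For the medium against aging the same ranges were 57 to 68 higher, 0 to 1 lower, 58 to 68 in either direction and 0.16 to 0.21. For the medium against normal they were 42 to 51 higher, 4 to 11 lower, 51 to 57 in either direction and 0.10 to 0.15. With a required change of 1 or more on the log2 scale the count was 0 in each of the 3 comparisons.

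With library totals in place of TMM factors, 1 member was lower with the medium against aging, at a median of 0.11, and against normal 26 were higher and 18 lower, at a median of 0.0230. Limma on FPKM, with either pseudocount, called 38 members with the medium against aging, all higher, at a median of 0.11, and against normal 20 higher and 12 lower, 32 in all, at a median of 0.0265 or 0.0266. DESeq2 called 2 lower against normal. Over the 20 alternatives, 2069 to 3432 of all genes were higher and 2659 to 4199 lower with the medium against aging. For the medium against normal these counts were 2367 to 3762 and 3161 to 4889. The share of the members was 10.3%, 9.72% and 10.2% of summed FPKM and 4.48%, 4.35% and 4.76% of counts outside the mitochondrial genome in normal, aging and medium-treated RGCs. The direction turned for Eef2 (-0.0712) and Tpt1 (-0.0782) with the medium against aging under library totals, for Rpl23a (-0.0814) and Rpl5 (-0.0208) against normal under library totals, and for Rpl10 against normal when a normal library was left out (-0.0863 to 0.14), and the cause was not tested. Against normal the direction also turned for Rpl17 and Rps15 under library totals and in limma on FPKM. In limma on FPKM it turned for Rps3, Rpl10a, Rpl30 and Rpl13a too. No turned value of Rpl17, Rps15, Rps3, Rpl10a, Rpl30 or Rpl13a was called, and that of Rpl5 was not called either (edgeR, adjusted p = 0.576). Eef2 and Tpt1, in contrast, were called lower with the medium against aging under library totals. Whether the turned values of Rpl23a and Rpl10 were called is not given here. Leaving out medium-treated replicate 2 turned Rpl23a against normal (-0.0231), and Eef2 (-0.00537) and Tpt1 (-0.0207) with the medium against aging. Tpt1 also turned without aging replicate 2 (-0.0237), and Rpl10 against normal without medium-treated replicate 1 (0.00528) or 3 (0.0325).

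Replicate numbers did not pair the wells, since deviations of same-numbered libraries correlated at -0.03 to 0.05 over all genes, and at -0.62 to 0.52, with both signs, over the ribosomal protein genes alone. With a replicate block 6 members were higher and 32 lower in aging, 64 were higher with the medium against aging, and 48 were higher and 7 lower with the medium against normal. Counts for the other gene lists under these settings were chosen after seeing the data. The depth and 3 wells a group limit the precision for small changes, and mRNA shared between near-identical genes is split by estimation.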
